A study of Homo sapiens with 10 samples.

Results

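The regions described here are stretches of DNA that were called accessible in parental cells given DMSO, the vehicle, and were no longer called after either of 2 drugs that disturb replication. They were selected on the authors' peak calls in 3 libraries. Peaks of all 10 libraries on chromosomes 1 to 22 and X were first merged into regions, with 1 shared base pair enough to join them. A region was then kept when the parental DMSO list had a peak in it and neither the parental 6 h prexasertib list nor the parental camptothecin list did. This gave 827 regions, 5.27% of the 15697 regions called in parental DMSO cells, out of 35505 merged regions in all. Their absence in those 2 lists and their presence with DMSO chose them, so these are descriptions and not findings.

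All libraries came from CCRF-CEM, an established human leukemia line of T lymphoblast origin. The knockout libraries came from CCRF-CEM cells labelled as an SLFN11 gene knockout, and the parental ones from cells labelled wild-type, which are SLFN11-positive per the series record. Each line had a library after DMSO, after 100 nM prexasertib for 2, 4 and 6 h, and after 100 nM camptothecin for 4 h, which makes 10 libraries with 1 per group. The labels do not say whether the knockout line is a single clone. Per the series record, the raw file behind the parental library at 4 h of prexasertib is truncated. The number of members was 829 when that list was left out of the merging. With 1 library per group no difference between conditions was tested, and the exact (Clopper-Pearson) 95% intervals below cover counting error over regions only.

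ATAC-seq marks open chromatin by the places where a transposase can insert adapters, so a peak is usually a promoter, an enhancer or another stretch with few nucleosomes. Prexasertib inhibits the checkpoint kinase CHK1, which restrains origin firing and protects stalled replication forks. Camptothecin traps topoisomerase I on DNA and so also stalls forks. SLFN11 is recruited to stressed forks, blocks further replication there and has been linked to chromatin opening. A missing peak says that the signal did not pass the peak caller's threshold, not that the site was closed.

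Positions are on build hg19, and no hg19 gene annotation or sequence was used here. The regions are therefore given by position, without genes or sequence letters, and neither SLFN11 nor markers of T lymphoblasts were checked in the lists.

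Loss of a parental DMSO region was counted 1426 times at 6 h of prexasertib (9.08%) and 1357 times with camptothecin (8.64%). The 827 regions are 58.0% (55.4% to 60.6%) of the first set and 60.9% (58.3% to 63.5%) of the second. Both sets were read against the same DMSO library, so their overlap is given only as the size of the group described. The lists with drug held more regions in all, 22834 after 6 h of prexasertib and 21432 after camptothecin, against 15697 with DMSO. Their background pileup, the genome-wide stack of reads recovered from the deposited values and used as a measure of depth, was 1.52 and 1.45, against 1.63 with DMSO. The smallest −log10 p that passed was 4.38 and 4.39, against 4.54 with DMSO, and the shortest peak measured 160 and 175 bp, against 199 bp. The part of depth and of these thresholds in the losses was not tested.

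The lost regions were weak and narrow with DMSO. Strength here is the deposited −log10 q of the strongest summit in the parental DMSO list, where every peak exceeds 2. Its median was 3.88 (quartiles 2.71 and 5.28) in the 827 regions and 10.6 (5.85 and 18.9) in the 14870 other parental DMSO regions. The reads stacked at the summit numbered 12 at the median (quartiles 10 and 14) in the lost regions and 25 (17 and 39) in the others, where the smallest stack called in this list was 9. The longest peak measured 278 bp at the median (quartiles 231.5 and 364.5 bp) in the lost regions and 536 bp (359 and 748 bp) in the others. Low stacks and narrow peaks were not particular to loss with both drugs. Regions lost at 6 h of prexasertib only had medians of 14 reads and 317 bp. Those lost with camptothecin only had 13 reads and 288 bp. Peaks under 300 bp made up 58.3% of the lost regions and 16.1% of the others. All but 14 of the lost regions had a single summit, 813 of 827.

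**Figure D1:**
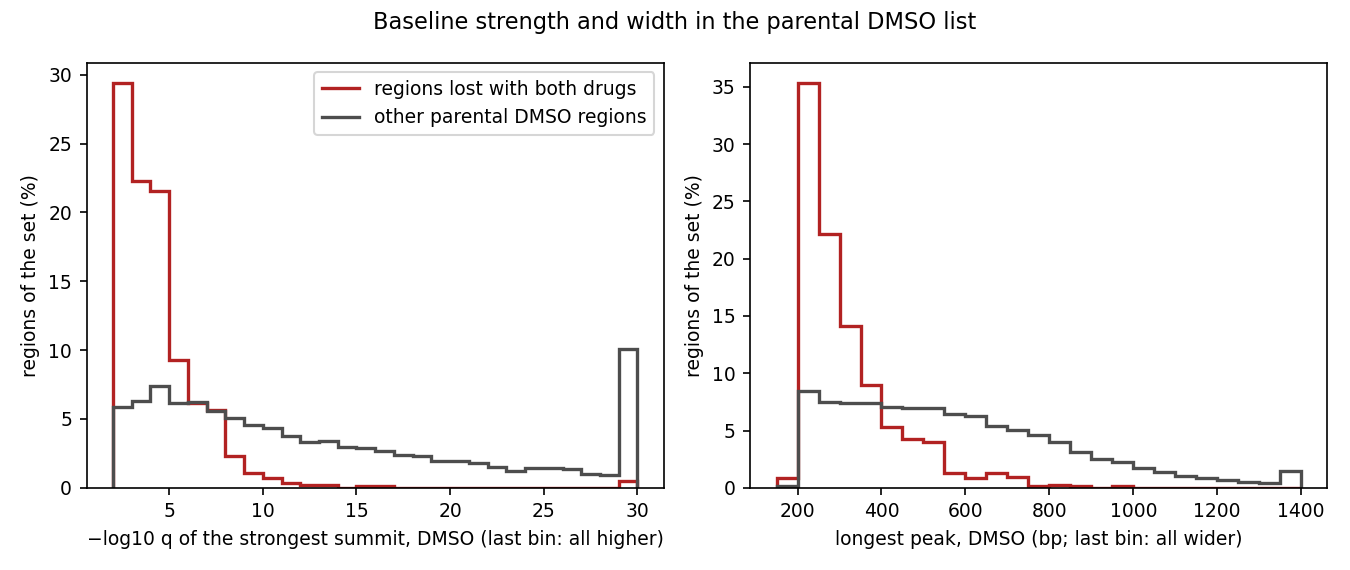
Percentage of regions by −log10 q of the strongest summit (left, bins of 1) and by width of the longest peak in bp (right, bins of 50; the last bin of each holds all higher values), both in the parental DMSO list, for the 827 regions lost with both drugs (red) and the 14870 other parental DMSO regions (grey). The lost regions pile up at the low end of both axes, with medians of 3.88 and 278 bp against 10.6 and 536 bp.

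Most lost regions lay near the calling threshold, but not all. Of the 3518 parental DMSO regions with a −log10 q from 2 to 5, 605 were lost with both drugs, 17.2% (16.0% to 18.5%). From 5 to 10 it was 203 of 4310, 4.71% (4.10% to 5.39%). From 10 to 20 it was 15 of 4475 (0.335%), and at 20 or more 4 of 3394 (0.118%). The weakest members had a DMSO −log10 q of 2.00, and 243 members lay under 3. Just outside the rule, the region at chromosome 10, 80862738 to 80863361, kept a peak with a −log10 q of 2.01 at 6 h of prexasertib and had none with camptothecin. In all, 223 parental DMSO regions escaped the rule through drug peaks that were all under 3. Regions lost with 1 drug only stood between the groups in strength. The 599 lost at 6 h of prexasertib only had a median −log10 q of 4.69, and the 530 lost with camptothecin only had 4.04.

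The number of members depended on how a peak was counted. It was 2413 when a peak had to overlap the DMSO peak reciprocally by 50%, and 2182 when all lists were cut to the length of the shortest. It was 532 and 197 when only peaks with a −log10 q of at least 5 or at least 10 were kept in all lists, and 222 when that limit of 5 was set on the DMSO list alone.

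A few members were strong with DMSO. The region at chromosome 2, 88124413 to 88124859, had the highest DMSO value of the members. Its −log10 q lay between 323 and 371 in the 5 knockout lists. In the parental lists it was 363 with DMSO, 329 at 2 h and 364 at 4 h of prexasertib, with 365, 328 and 340 reads stacked at the summit. No peak was listed there at 6 h of prexasertib or with camptothecin. The 8 lists that called it thus had near-equal values, and the 2 lists of the rule had none within 500 bp, since the region stayed a member when peaks within 500 bp were counted. The regions were not set against a list of known problem regions of hg19, so whether this one belongs to such a list was not tested.

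Among the other strong members, 4 lay at the edge of long stretches that hold no peak in any list. On most chromosomes the longest such stretch spans the centromere. The region at chromosome 7, 57997195 to 57997592, lay 0.024 Mb from the longest peak-free stretch of its chromosome. Its −log10 q was 49.999 and 40.6 in the knockout 6 h prexasertib and camptothecin lists, with no peak in the other knockout lists, and 54.5 with DMSO and 34.02 at 4 h of prexasertib in parental cells. In both genotypes it was thus present in some lists and absent from others. On chromosome 12, the region at 34833816 to 34834843 was called in all lists but the 2 of the rule, at 32.9 to 47.5 in knockout and 33.8, 20.3 and 32.1 in parental cells with DMSO and at 2 and 4 h. On chromosome 19, the region at 24571427 to 24572019 had 30.1, 25.7 and 36.1 at 2, 4 and 6 h of prexasertib in knockout cells, against 30.1 with DMSO and 16.4 at 2 h in parental cells. The knockout DMSO and camptothecin lists and the parental 4 h list had no peak there. On chromosome 16, the region at 35274854 to 35275777 had 13.7 to 21.8 in the 5 knockout lists, against 15.2 with DMSO and 16.0 at 2 h in parental cells. Its parental peak was missing from 4 h on. Within 1 Mb of the longest peak-free stretch lay 32 lost regions, 3.87% (2.66% to 5.42%), and 302 of the others, 2.03% (1.81% to 2.27%). Among the 19 members with a DMSO −log10 q of at least 10 there were 4. The other regions of that strength were not counted in this way, so the 4 have no share beside them. Without the regions in this zone 795 members remained.

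The remaining 5 of the 10 strongest lay elsewhere on the chromosome arms. At chromosome 2, 166466933 to 166467441, the −log10 q was 8.08, 10.5, 4.52 and 7.55 in knockout cells with DMSO and at 2, 4 and 6 h of prexasertib, with no peak after camptothecin. In parental cells it was 16.4 with DMSO and 10.3 at 2 h, and the stack at the summit numbered 26 and 17 reads. The region at chromosome 7, 102650052 to 102650958, had narrower peaks in the parental lists at 2 and 4 h. Its longest parental peak measured 827 bp with DMSO, 323 bp at 2 h and 240 bp at 4 h, with a −log10 q of 12.4, 4.93 and 3.26. In knockout cells it measured between 456 and 877 bp and was called in all 5 lists.

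A peak at chromosome 11, 82461747 to 82462170, had a −log10 q of 2.69 and 3.43 at 4 and 6 h in knockout cells, against 13.4 with DMSO and 3.62 at 2 h in parental cells. Another, at chromosome 4, 178517258 to 178517638, had 3.50 and 6.15 in the same knockout lists and was called in parental cells with DMSO alone, at 12.0. The last, at chromosome 4, 70849834 to 70850143, was called in no list but parental DMSO, at 13.8 with 23 reads at the summit. In these 3 a peak well above the threshold in parental DMSO cells was missing from the knockout DMSO library. In the other lists it was missing or had a −log10 q of at most 6.15.

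**Figure D2:**
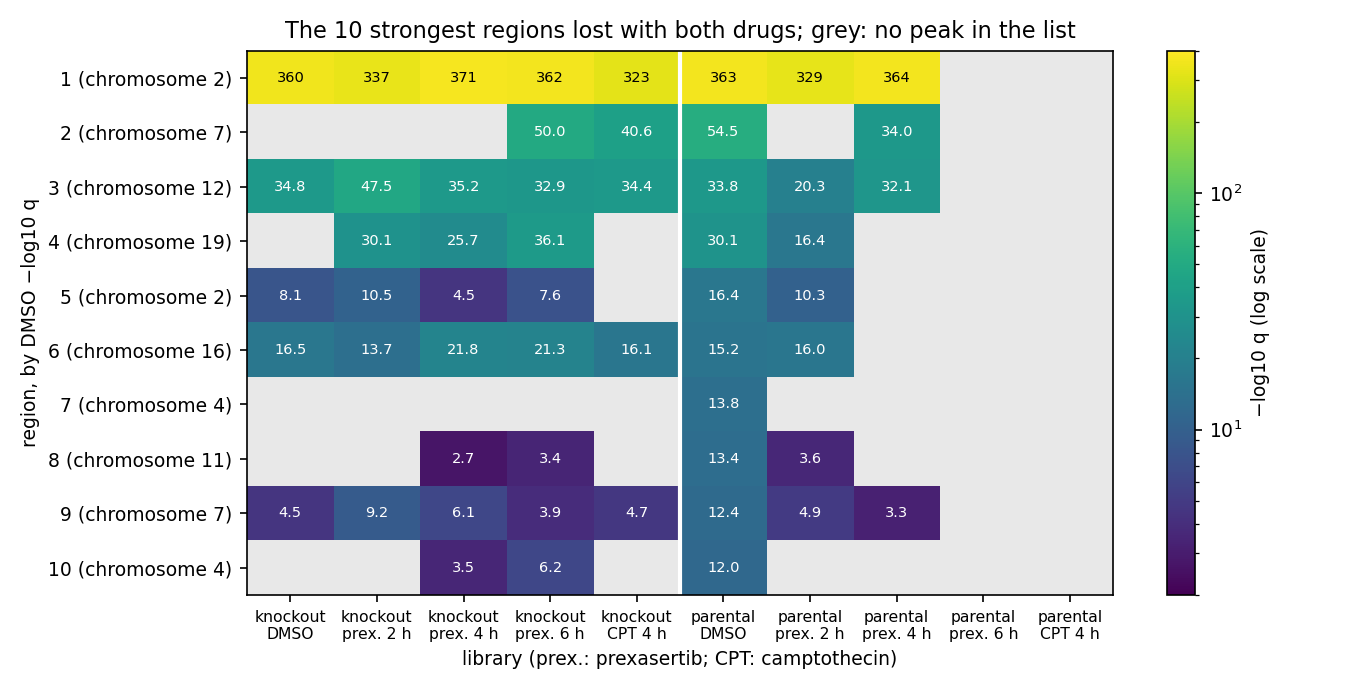
Deposited −log10 q of the strongest summit (colour, log scale; numbers in the cells) for the 10 members with the highest parental DMSO value, 1 row each, in the 5 knockout and the 5 parental libraries. Grey cells hold no peak. The 6 h prexasertib and camptothecin columns of the parental cells are empty by the rule, and the chromosome 2 region in the top row reads between 323 and 371 everywhere else.

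The 2 h and 4 h prexasertib lists of the parental cells had no part in the rule, though they are read at regions chosen with the same DMSO library. At 2 h a peak was called in 148 of the 827 members, 17.9% (15.3% to 20.7%), and in 85.8% of the other parental DMSO regions. The share over all parental DMSO regions was 82.3%. At 4 h it was 124 members, 15.0% (12.6% to 17.6%), and 90.5% of the others, with 86.6% over all. Most members thus had no peak in the 2 h list either. In 47 members a peak was called at both times, in 101 at 2 h only, in 77 at 4 h only and in 602 (72.8%) at neither. Over all parental DMSO regions, 9.45% were called at neither time. The 2 h and 4 h shares of the members have overlapping intervals, and their order turned round when only peaks with a −log10 q of at least 5 were kept, with 16.7% at 2 h and 17.9% at 4 h.

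These lists held 15447 regions at 2 h and 17571 at 4 h, with a background pileup of 1.48 and 1.33, against 1.63 with DMSO, and the part of depth was not tested. Baseline strength differs between members and others, so the shares are also given among regions of like strength. Like strength does not remove the selection, since the others had a peak in at least 1 list of the rule and the members in none. At a DMSO −log10 q from 2 to 5, 14.9% (12.1% to 18.0%) of the members and 57.9% (56.1% to 59.7%) of the others were called at 2 h, and 11.2% and 70.0% at 4 h. From 5 to 10 it was 24.6% (18.9% to 31.2%) and 81.8% (80.6% to 83.0%) at 2 h, and 23.6% and 88.9% at 4 h. The regions lost with 1 drug only lay between, with 45.9% of those lost at 6 h of prexasertib only and 32.8% of those lost with camptothecin only called at 2 h.

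In knockout cells the members' shares also lay below those of the rest. With DMSO, a peak was called in 269 members, 32.5% (29.3% to 35.8%), and in 93.9% of the other parental DMSO regions, with 90.7% over all of them. At 2, 4 and 6 h of prexasertib the members' shares were 49.1% (45.6% to 52.6%), 36.2% (32.9% to 39.5%) and 39.2% (35.8% to 42.6%). Over all parental DMSO regions they were 94.7%, 92.1% and 93.1%. After camptothecin it was 27.8% (24.8% to 31.0%) of the members, with 88.5% over all. The order of the 5 shares follows the lengths of the knockout lists, which held 19954 regions with DMSO, 23773, 21166 and 22955 at 2, 4 and 6 h, and 18591 after camptothecin. The background pileup was between 1.59 with DMSO and 1.99 at 6 h in all of these lists but the 2 h one, which was the deepest by this measure. With all lists cut to 1 length the rule was applied anew and chose a different set of 2182 members. The knockout shares of that set lay between 26.2% and 31.0%, and its 2 h share was 30.1%. Since the members differ, these shares cannot be set against those above to read the effect of list length. The part of depth in the order of the knockout lists was not tested.

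**Figure D3:**
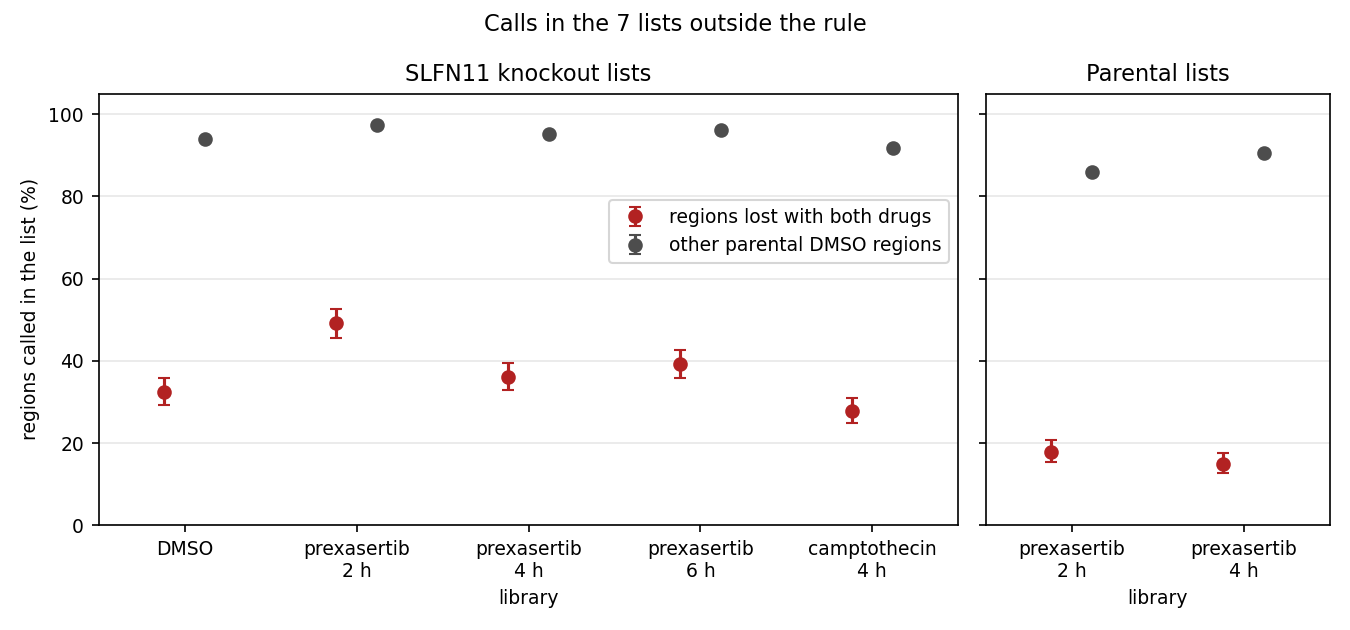
Percentage of the 827 regions lost with both drugs (red) and of the 14870 other parental DMSO regions (grey) that were called in the 5 knockout lists (left) and in the 2 parental lists outside the rule (right). Bars are exact 95% intervals over regions, smaller than the marker for the grey points. The red points lie between 15.0% and 49.1%, and the grey ones between 85.8% and 97.3%.

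The shares are also given at like parental DMSO strength, which does not remove the selection. By the rule, the others had a peak in at least 1 of the drug lists that chose the members, and the members in none. Of the regions with a parental DMSO −log10 q from 2 to 5, 29.9% (26.3% to 33.7%) of the members and 80.6% (79.1% to 82.0%) of the others were called in the knockout DMSO list. From 5 to 10 it was 39.9% (33.1% to 47.0%) and 93.1% (92.2% to 93.8%). The number of knockout lists with a peak varied among the members. In 258 members (31.2%) no knockout list had a peak, against 2.28% over all parental DMSO regions. In 93 (11.2%) all 5 knockout lists had one, against 83.0%. The other members were called in 1 knockout list (160, 19.3%), in 2 (135, 16.3%), in 3 (91 of 827) or in 4 (90, 10.9%). Over all parental DMSO regions, 2.02%, 2.60%, 3.61% and 6.48% were called in 1, 2, 3 and 4 knockout lists.

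The 239 members called in no other list at all, 28.9% of the 827, are peaks of the parental DMSO library only. Over all parental DMSO regions the share is 1.52%, and every region in that count is a member by the rule. The 5 strongest lay on 3 chromosomes. Chromosome 4 held the one at 70849834 to 70850143 described above, with a −log10 q of 13.8, and those at 181539646 to 181539983, with 11.9, and 165541137 to 165541619, with 9.96. Chromosome 17 held one at 69094362 to 69094577, with 11.6, and chromosome 6 one at 131602718 to 131602920, with 8.58. They had between 16 and 23 reads at the summit. Of the 239, 205 had a −log10 q under 5.

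At the other end stood members called throughout the knockout series. In 21 members, 2.54%, the peak was missing from the 2 lists of the rule and from no other, whereas 74.9% of all parental DMSO regions were called in each of the 7 lists outside the rule. The region at chromosome 20, 62324823 to 62325076, was one of them. It had a −log10 q of 7.97 with DMSO, 13.5, 9.81 and 8.76 at 2, 4 and 6 h and 17.6 after camptothecin in knockout cells, against 10.3 with DMSO, 12.6 at 2 h and 5.76 at 4 h in parental cells. Its longest peak was narrow throughout, from 195 to 237 bp. The widest members at baseline were partly of this kind. One at chromosome 13, 93458015 to 93459238, measured between 554 and 1224 bp in the 5 knockout lists, against 961 bp with DMSO and 512 bp at 2 h in parental cells. Another at chromosome 13, 72941725 to 72942675, measured between 203 and 236 bp in knockout cells, against 767, 432 and 405 bp with DMSO and at 2 and 4 h in parental cells. One at chromosome 6, 53174248 to 53175217, measured 683 bp with DMSO and 365, 596 and 384 bp at 2, 4 and 6 h of prexasertib in knockout cells, with no peak after camptothecin, against 818, 309 and 268 bp with DMSO and at 2 and 4 h in parental cells.

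In 147 members a knockout DMSO peak went with no parental peak at 2 or 4 h, 17.8% of the 827 and 4.29% of all parental DMSO regions. In 38 members, 4.59%, no treated parental list but all 5 knockout lists had one. Of all parental DMSO regions, 1.73% were called in the 5 knockout lists and at neither 2 nor 4 h. Regions lost with 1 drug only showed these patterns about as often as the members or more often. The first held 17.2% of those lost at 6 h of prexasertib only and 22.1% of those lost with camptothecin only. The second held 6.34% and 6.60%. At a DMSO −log10 q from 2 to 5 the second held 3.31% of the members and 4.81% of the others, with overlapping intervals. From 5 to 10 it held 8.87% and 2.05%. Among regions called at neither 2 nor 4 h in parental cells, 147 of 602 members and 526 of 881 others had a knockout DMSO peak. Of these 147 members, the one with the highest parental DMSO value lay at chromosome 21, 14367942 to 14368418. Its −log10 q was 2.68 in knockout DMSO cells against 10.5 in parental DMSO cells. It was called in no treated library of either line. At chromosome 1, 195164586 to 195165186, it was 4.56, 10.7, 8.22 and 8.56 with DMSO and at 2, 4 and 6 h and 4.58 after camptothecin in knockout cells, against 9.75 in parental DMSO cells. At chromosome 7, 133716949 to 133717352, it ran from 2.14 to 7.02 over the knockout lists, against 9.61 in parental DMSO cells. The regions at chromosome 11, 110778382 to 110778805, and chromosome 6, 119643391 to 119644250, had 4.54 and 4.02 in knockout DMSO cells, against 9.07 and 8.68 in parental DMSO cells. Both were also called at 2 and 4 h of prexasertib in knockout cells and not after camptothecin.

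Members that had a knockout DMSO peak were also set against the treated knockout lists. Of the 269, 66 had no peak in either the knockout 6 h prexasertib or the knockout camptothecin list, 24.5% (19.5% to 30.1%). Of the 13962 other parental DMSO regions called there, 141 were lost in both, 1.01% (0.851% to 1.19%), and the share over all knockout DMSO regions was 8.66%. Among regions with a knockout DMSO −log10 q from 2 to 5 the shares were 29.9% (22.4% to 38.3%) of 137 members and 7.02% (5.56% to 8.72%) of 1068 others. From 5 to 10 they were 21.8% (14.5% to 30.7%) of 110 members and 2.22% (1.70% to 2.85%) of 2705 others. By the rule, these others had a peak in at least 1 of the parental drug lists. All knockout DMSO regions from 2 to 5 were also split into quartiles by the number of regions nearby. Their shares lost in both were 32.4%, 29.1%, 30.3% and 26.8%, from the fewest to the most, so the members' 29.9% lay within that range. All 4 treated knockout lists kept a peak in 93 of the 269 members (34.6%) and in 92.7% of the others.

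The lost regions were spread unevenly over the chromosomes. The highest shares of parental DMSO regions lost with both drugs were on chromosome 18, with 31 of 274 (11.3%, 7.82% to 15.7%), and chromosome 4, with 68 of 729 (9.33%, 7.32% to 11.7%). The lowest were on chromosome 19, with 6 of 875 (0.686%, 0.252% to 1.49%), chromosome 22, with 3 of 312 (0.962%), and chromosome 17, with 13 of 784 (1.66%). Chromosomes 19, 17 and 22 are known for their many genes, and chromosomes 18 and 4 for few. The same chromosomes lay highest and lowest among the weak regions with a DMSO −log10 q from 2 to 5, with 30.9% on chromosome 4 and 28.9% on chromosome 18, against 5.26% on chromosome 17, 3.38% on chromosome 19 and 1.37% on chromosome 22. The same rule was applied to the knockout lists, a DMSO peak and none at 6 h of prexasertib or with camptothecin. It gave 14.1% on chromosome 18 and 8.60% on chromosome 4, against 8.66% over all knockout DMSO regions. For chromosome 22 the share was 8.58%, and for chromosomes 17 and 19 it was 4.34% and 3.78%.

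**Figure D4:**
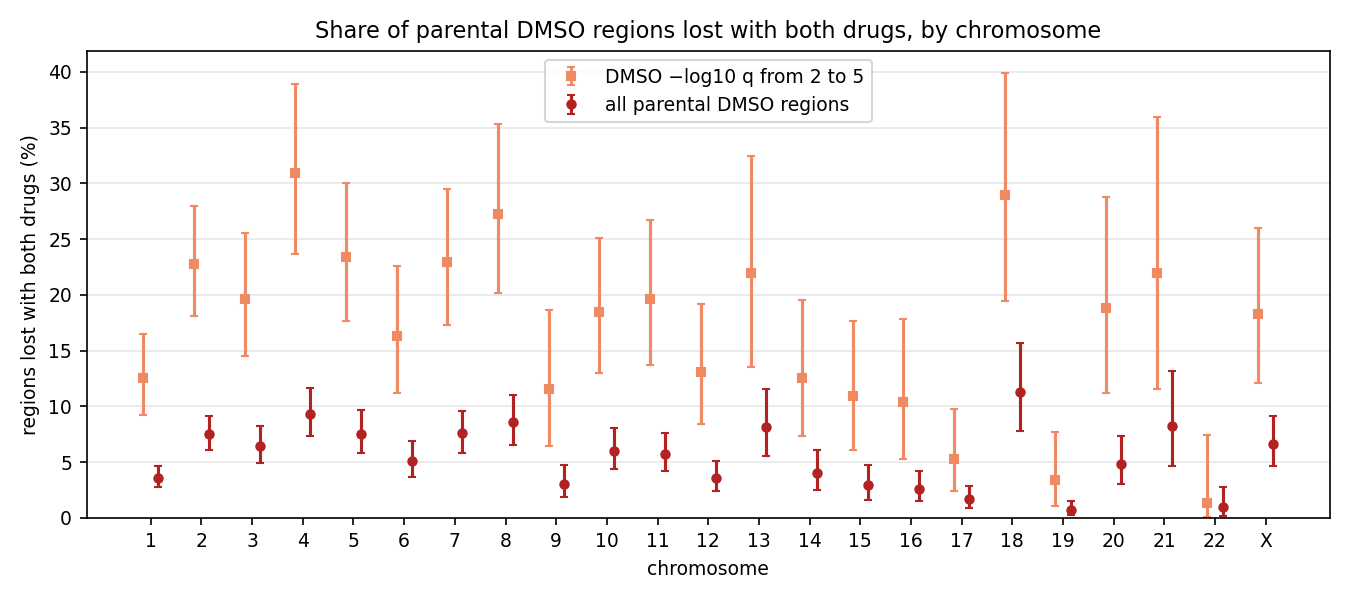
Percentage of parental DMSO regions lost with both drugs on each chromosome, over all such regions (circles) and over those with a DMSO −log10 q from 2 to 5 (squares), with exact 95% intervals. Chromosomes 17, 19 and 22 lie lowest in both series, and chromosomes 4 and 18 highest.

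Members had fewer accessible regions around them than the others did. Around each parental DMSO region the other regions of the same list were counted within 500 kb on either side. The median count was 5 for the members (quartiles 2 and 7) and 8 for the others (5 and 13). Regions lost with 1 drug only lay close to the members. Their median was 6 when lost at 6 h of prexasertib only (3 and 8) and 6 with camptothecin only (3 and 10). In the sparsest quartile, with 0 to 5 neighbours, 493 of 4816 regions were lost with both drugs, 10.2% (9.39% to 11.1%). In the densest, with 14 to 41, it was 37 of 3525, 1.05% (0.740% to 1.44%). The gradient was also present at like strength. Among regions with a −log10 q from 2 to 5 the shares were 29.4% (26.8% to 32.1%), 16.9%, 9.90% and 4.84% (3.31% to 6.79%) from the sparsest to the densest quartile. Among those from 5 to 10 they were 10.2%, 3.76%, 2.34% and 0.424%.

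**Figure D5:**
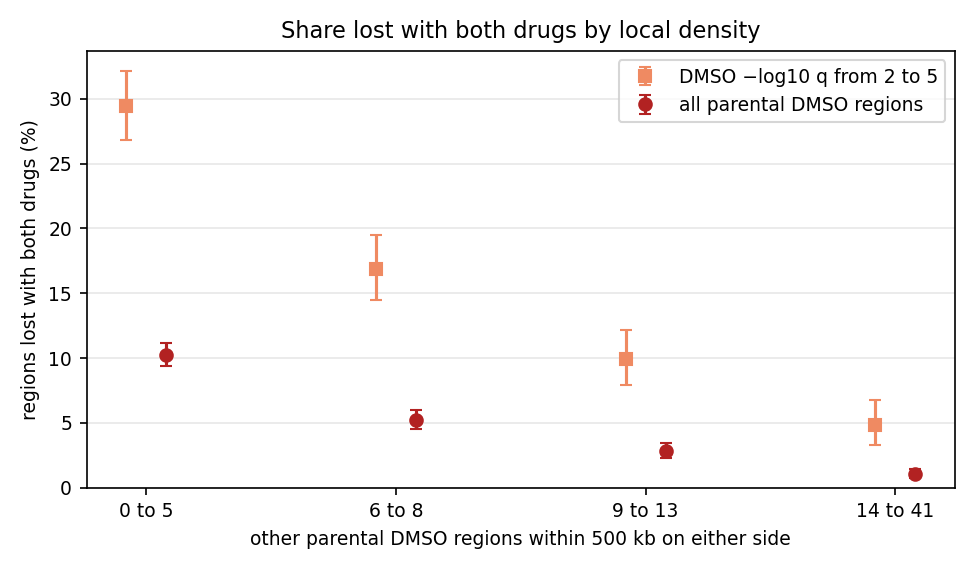
Percentage of parental DMSO regions lost with both drugs, by the number of other parental DMSO regions within 500 kb on either side, over all such regions (circles) and over those with a DMSO −log10 q from 2 to 5 (squares), with exact 95% intervals. Both series go down from the sparsest to the densest quartile, from 29.4% to 4.84% for the weak regions.

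The lists outside the rule can be read over the same weak regions, members and others together. At 2 h of prexasertib 55.2% (52.3% to 58.1%) of those in the sparsest quartile and 40.9% (37.0% to 44.8%) of those in the densest had no peak in parental cells. At 4 h it was 52.2% and 25.1%. In the knockout lists it was 37.9% and 19.2% with DMSO, 26.9% and 8.11%, 36.1% and 14.5%, and 32.3% and 11.4% at 2, 4 and 6 h, and 42.5% and 22.9% after camptothecin. Weak parental regions in sparse surroundings thus had the higher share without a peak in each of these 7 lists, the knockout DMSO list included. When the rule was applied to the knockout lists, the shares over all knockout DMSO regions were 10.2%, 9.39%, 8.86% and 5.79% from the sparsest to the densest quartile of that list. Over its weak regions they ran from 32.4% (29.9% to 34.9%) in the sparsest to 26.8% (23.8% to 30.0%) in the densest. The difference between the lines has no replicate check.

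Along the chromosome 160 members had another member next to them, 19.3% (16.7% to 22.2%), against 1400 of the other parental DMSO regions with a member next to them, 9.41% (8.95% to 9.90%). The 160 formed 73 runs of at least 2, and for the other 667 members neither neighbouring parental DMSO region was a member. The longest run held 5 successive parental DMSO regions on chromosome 5, between 12277634 and 13382735. Their −log10 q with DMSO was 6.58, 2.47, 7.01, 3.76 and 2.47 along the chromosome, and they were called in 4, 0, 5, 1 and 0 knockout lists. The median distance to the nearest other member was 983 kb for the members and 1506 kb for the other parental DMSO regions.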

How the data were processed

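ATAC-seq was made from 10 libraries, 1 per genotype and treatment, so samples were grouped by their labelled source and no replicates exist. The submitters' processing notes name MACS2 2.1.2 and build hg19, and also BWA 0.7.17, Picard 2.9.2, SAMtools 1.8, Trimmomatic 0.39 and Trim Galore 0.6.2. Those notes give no parameters, and duplicate removal and shifting for the transposase are unknown here. The authors deposited 1 peak list per library, with a fold over the local background and a −log10 p-value and −log10 q-value per summit. These are the authors' values and are used to rank and describe peaks within a list. For named regions they are also set beside each other across lists, without scaling for depth. The part of depth in such differences was not tested.

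Lines with the same start and end were taken as summits of 1 peak. Whole pileups were recovered from the deposited fold and −log10 p within 0.001 for 99.8% or more of summits in every list, and the smallest local background gave the background pileup. Read counts are not known. The rule was tested on copies of the parental DMSO list with planted losses. The pileup recovery was tested on values simulated with the same formula that it inverts. That test therefore cannot show that the deposited values follow the formula. Python 3.11.15, NumPy 2.4.6, pandas 2.3.3, SciPy 1.17.1 and Matplotlib 3.10.9 were used. Regions were named by rule: the 10 strongest members, and the 5 strongest called in no other list, called in all 5 knockout lists, or called in knockout DMSO but at neither 2 nor 4 h, and the 5 widest. The members and lists were chosen with earlier results of these data known. No paired analysis or test was made, since the groups have no replicates. Peaks on other sequences were left out of the comparisons.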

Additional observations from a re-analysis of the deposited data

How the results depend on the processing

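No paired analysis was possible because each group has 1 library and the groups share only 1 replicate number, given in accession order; the lines were not paired by treatment. Of 107 values recomputed under other settings, 52 stayed within the 95% interval of the reported one (for counts within 1.5 times, for medians within their order-statistic interval) and 55 did not. In all 75 comparisons of a list under a setting, the main one included, the members' share called lay below that of the other regions. The rule was applied under each setting to the same libraries. These comparisons are therefore not independent of the selection or of each other. Whether a setting moved a value through the number of peaks kept was not tested.

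Keeping only peaks with a −log10 q of at least 5 in all lists gave 532 members, 4.37% of the parental DMSO regions, with a median −log10 q of 6.62 and a median width of 323.5 bp. Of these, 36.7% were called in the knockout lists with DMSO, 58.8% at 2 h and 43.8% at 6 h, and 23.5% in no knockout list, and 17.9% in parental cells at 4 h. For the other parental DMSO regions under this setting it was 94.7%, 98.2% and 97.1% in these knockout lists and 92.5% in the parental one. A limit of 10 gave 197 members (2.50%; medians 11.7 and 406 bp), called in 61.9% at 2 h, in no knockout list in 23.4% and in all 5 in 7.61%, and in parental cells in 15.2% at 2 h and 17.8% at 4 h. The others were called in 98.7% in the knockout 2 h list, and in parental cells in 85.2% at 2 h and 94.4% at 4 h. A limit of 5 on the parental DMSO list alone gave 222 (1.82%; medians 6.68 and 300.5 bp). Their knockout shares were 39.6% with DMSO, 62.2%, 51.4% and 55.9% at 2, 4 and 6 h and 41.0% after camptothecin, with 17.1% in no knockout list and 19.8% in all 5, and the parental shares were 26.1% and 25.2% at 2 and 4 h. The others had knockout shares of 97.1%, 98.9%, 97.8%, 98.3% and 96.3% in the same order, and parental shares of 92.6% and 95.5%.

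Reciprocal overlap of 50% gave 2413 members (15.2%; medians 4.37 and 293 bp). Their knockout shares were 31.7%, 30.0% and 29.5% at 2, 4 and 6 h, 35.9% in no list and 6.71% in all 5, and the parental shares 26.0% and 22.5% at 2 and 4 h. The others had 83.3%, 85.1% and 84.4% in these knockout lists, and 81.1% and 85.4% in the parental ones. Lists of equal length gave 2182 (14.1%; medians 4.15 and 301 bp). Their knockout shares were 30.1%, 26.3% and 26.2% at 2, 4 and 6 h and 31.0% after camptothecin, 41.4% in no list and 5.96% in all 5, and the parental shares 33.3% and 22.5% at 2 and 4 h. The others had 93.1%, 92.8%, 92.9% and 91.8% in these knockout lists, and 90.9% and 92.6% in the parental ones. With parental DMSO peaks as the regions, members were 5.71%. Merging without the parental 4 h list gave 829 members and counting peaks within 500 bp gave 802. Leaving out regions within 1 Mb of a peak-free stretch, chosen after the data were seen, gave 795.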

Other observations

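The same rule in the knockout lists chose 1728 of the 19954 knockout DMSO regions, 8.66% (8.27% to 9.06%). They too were weak and narrow with DMSO, with a median −log10 q of 3.73 and a median longest peak of 274 bp, against 12.7 and 601 bp in the other knockout DMSO regions. A parental DMSO peak lay in 207 of them (12.0%), against 76.9% of the other knockout DMSO regions, and 66 were lost with both drugs in parental cells as well. The parental 6 h prexasertib list held a peak in 31.2% of the 1728, and the parental camptothecin list in 27.1%. The shares of the other knockout DMSO regions in these lists were not computed, so neither value can be read as high or low.

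On unplaced, haplotype and mitochondrial sequences, 14 of 237 parental DMSO regions were lost with both drugs, 5.91% (3.27% to 9.71%), of which 3 were called in knockout DMSO cells and 2 in parental cells at 2 h of prexasertib.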
